A study of Mus musculus with 11 samples.

Results

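Transcripts of the NOP2/NSUN family and of TRDMT1, the mammalian enzymes that methylate carbon 5 of cytosine in RNA (m5C), were measured in EC4 cells, a mouse liver cancer line, at high or low MYC and at low or high methionine. The members were chosen by gene symbol. They are Nop2, Nsun2, Nsun3, Nsun4, Nsun5, Nsun6 and Trdmt1, which makes 7 of the 55416 gene identifiers in the data. All 7 were among the 12909 genes tested, those averaging 10 or more normalized counts. A further family gene, Nsun7, was under that minimum, with 1 read in 1 library of the MYC high group at 200 µM, 1 read in 1 library of the MYC low group at 200 µM and 0 in the other libraries.

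The study sequenced polyadenylated RNA from 11 EC4 libraries in 4 groups. Cells labelled MYC high carry the genotype "MYC on" and were kept for 24 h in DMEM with 10 µM methionine (3 libraries) or 200 µM methionine (2 libraries, replicates 2 and 3). Cells labelled MYC low (genotype "MYC off") were kept in the same media, at 10 µM (3 libraries) or 200 µM (3 libraries). All cells were grown in 200 µM methionine beforehand, and all come from 1 line. How MYC was switched is not given in the sources used here, and nothing says that libraries of a group came from separate cultures, so every p-value rests on a between-library spread that may be technical.

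These enzymes take the methyl group from S-adenosylmethionine (SAM), which cells make from methionine, and leave S-adenosylhomocysteine behind. NOP2 and NSUN5 act on the large ribosomal RNA, NOP2 in the nucleolus during ribosome assembly. NSUN2 methylates many cytosolic tRNAs, vault RNA and some mRNAs, NSUN6 a smaller set of tRNAs and mRNAs, and TRDMT1 (also called DNMT2, for its likeness to DNA methyltransferases) the anticodon loop of a few tRNAs. NSUN3 and NSUN4 work in mitochondria, NSUN3 on the methionine tRNA and NSUN4 on the small ribosomal RNA. MYC is a transcription factor that binds E-boxes and drives ribosome production in many tumours.

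The promoters of Nop2 and Nsun2, the 2 members with the highest levels per kilobase, are shown because both transcripts were higher in MYC high cells at both methionine concentrations. The sequences are the 250 bases before the transcription start from RefSeq, build GRCm38.p6, which is earlier than the build GRCm39 that the submitters' processing notes name. Capitals mark CACGTG, the canonical E-box, which reads the same on both strands.
Nop2, chr6:125131633-125131882, plus strand: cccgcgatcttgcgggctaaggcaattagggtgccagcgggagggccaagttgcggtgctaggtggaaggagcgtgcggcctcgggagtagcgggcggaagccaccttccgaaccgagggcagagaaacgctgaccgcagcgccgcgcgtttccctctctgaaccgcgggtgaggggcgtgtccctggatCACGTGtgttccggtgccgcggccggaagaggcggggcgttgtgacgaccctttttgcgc
Nsun2, chr13:69611766-69612015, plus strand: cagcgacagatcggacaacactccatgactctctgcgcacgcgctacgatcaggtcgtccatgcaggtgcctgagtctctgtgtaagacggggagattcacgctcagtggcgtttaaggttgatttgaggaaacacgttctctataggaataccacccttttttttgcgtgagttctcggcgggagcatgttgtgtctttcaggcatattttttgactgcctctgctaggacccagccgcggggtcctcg

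The motif lies 60 to 55 bases before the Nop2 start. RefSeq windows of 300 bases, from 250 before to 50 after a start, were found for 6 members, 8 windows in all. Nsun5 had no window and was not searched. CACGTG was in 1 of these 8, that of Nop2, against 2349 of all 32851 promoter windows (7.15%). The amino acid response element that ATF4 binds, searched as TGATGNAA on both strands, was in 0 of the 8, against 1304 of all windows (3.97%). A match is a string of letters in this window and says nothing of binding.

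Depth was similar across the groups, at 11788415 to 11965202 reads per library in the MYC high group at 10 µM, 10858936 to 11747837 in the MYC high group at 200 µM, 12194511 to 13085689 in the MYC low group at 10 µM and 11446651 to 12066545 in the MYC low group at 200 µM. Mouse Myc checks the labels. It averaged 336 ± 39.2 normalized counts in the MYC high group at 10 µM and 2089 ± 106 at 200 µM, and 336 ± 13.5 in the MYC low group at 10 µM and 1136 ± 31.3 at 200 µM (SD, n = 3, 2, 3 and 3). So Myc mRNA separated the MYC labels at 200 µM (log2 difference 0.88, limma adjusted p = 5.99e-14) and not at 10 µM (−0.00, 95% interval −0.13 to 0.12, adjusted p = 0.949). Whether reads of a MYC transgene would count as Myc is not given in the sources used here. The hepatocyte markers Alb and Serpina1a had 0 reads in all libraries. The epithelial keratins Krt8, Krt18 and Krt19 were expressed, while Epcam had 0 reads.

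Levels are the authors' normalized counts, a log2 difference is between group means of log2 (count + 1), and "rose", "fell", "higher" and "lower" mean an adjusted p of at most 0.05 in limma over all 12909 genes. In bulk RNA, fewer cells of a type and less RNA per cell cannot be told apart. The comparisons share libraries, so their results are given side by side and not as independent evidence of each other.

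**Figure D1:**
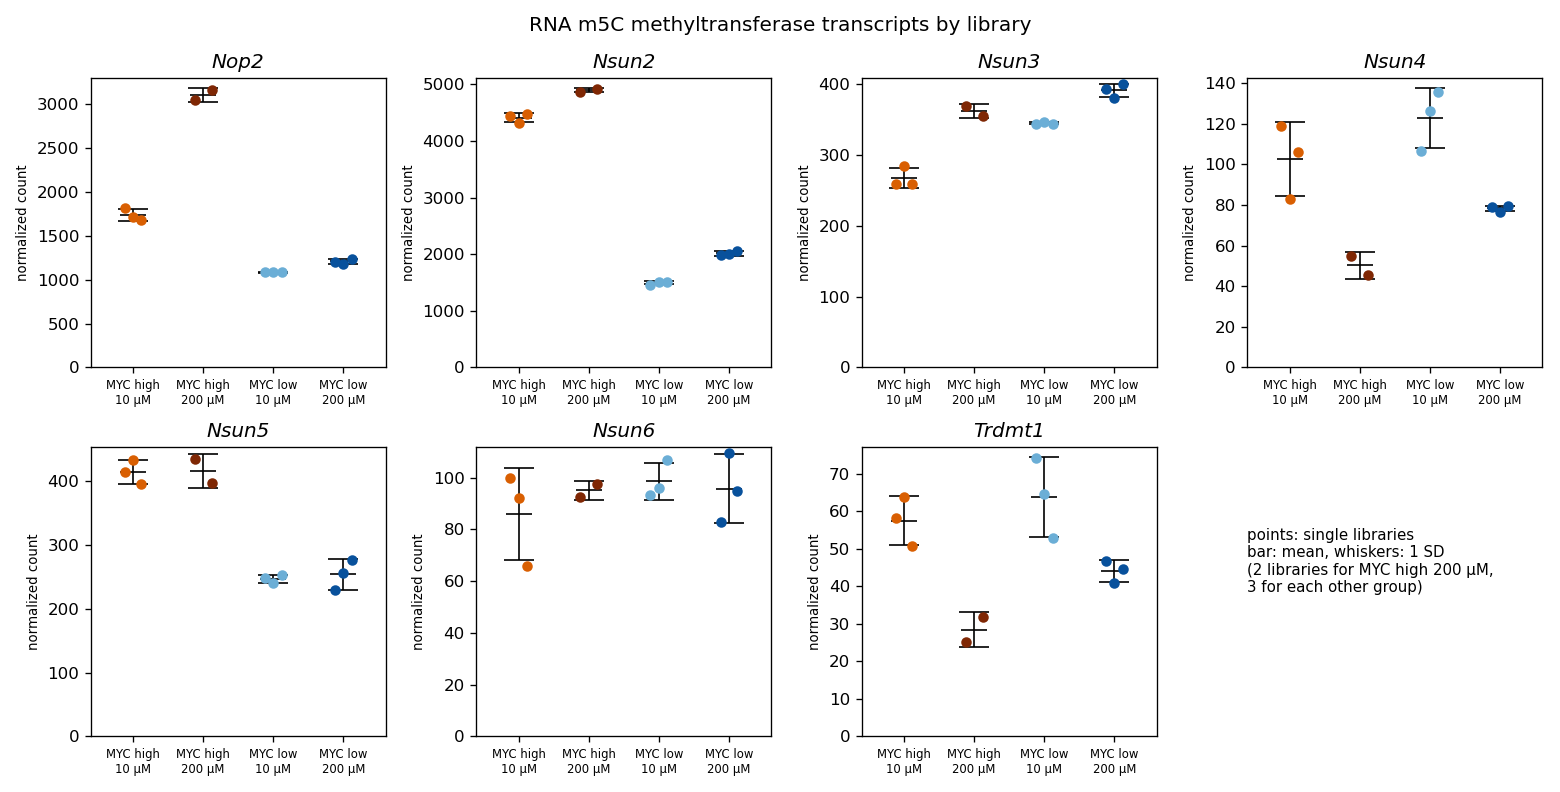
Normalized counts (vertical axes, each from 0) of the 7 members in every library, with the groups along the horizontal axes; points are libraries, bars the mean and whiskers 1 SD (2 libraries for MYC high at 200 µM, 3 for each other group). Nop2 and Nsun2 formed 4 separate levels, highest in the MYC high group at 200 µM (means 3108 and 4895), while the points of Nsun6 overlapped between all groups.

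The MYC high group at 200 µM held more of Nop2 and Nsun5, whose products act on the large cytosolic ribosomal RNA, and of the tRNA enzyme Nsun2, and less of Nsun4 and Trdmt1. Nop2 was 2.57-fold, Nsun2 2.43-fold and Nsun5 1.64-fold higher at high MYC than at low MYC. Of the 7 members, 3 were higher and 2 lower. Over all genes tested in this comparison, 36.8% were higher and 37.6% lower, so a call is common here. The median log2 difference was −0.00 for the members and −0.00 for all genes.

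Nop2 (ENSMUSG00000038279, chromosome 6, protein coding), the nucleolar rRNA methyltransferase, had 1817, 1719 and 1685 normalized counts in the MYC high group at 10 µM, and 3051 and 3166 in the MYC high group at 200 µM. It had 1083, 1092 and 1084 in the MYC low group at 10 µM, and 1206, 1182 and 1239 in the MYC low group at 200 µM. The 4 groups did not overlap, and every MYC high library was above every MYC low library. The MYC difference was 1.36 ± 0.044 (log2 ± SE, 95% interval 1.27 to 1.45, limma adjusted p = 1.23e-25) at 200 µM.

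Nsun2 (ENSMUSG00000021595, chromosome 13), the tRNA methyltransferase with the widest range of substrates in the family, had 4439.5, 4321 and 4474 normalized counts in the MYC high group at 10 µM, and 4869 and 4921 in the MYC high group at 200 µM. It had 1463, 1517 and 1504 in the MYC low group at 10 µM, and 1986, 2002 and 2061 in the MYC low group at 200 µM. The groups again formed separate levels in the same order as for Nop2. Its MYC difference at 200 µM was 1.28 ± 0.037 (limma adjusted p = 4.23e-27).

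Nsun5 (ENSMUSG00000000916, chromosome 5), the other member acting on the large ribosomal RNA, had 415, 433 and 396 normalized counts in the MYC high group at 10 µM, and 434 and 397 in the MYC high group at 200 µM. It had 248, 240.0 and 253 in the MYC low group at 10 µM, and 229, 256 and 277 in the MYC low group at 200 µM. Its libraries separated by MYC label, with no overlap between MYC high and MYC low libraries and overlap between the methionine groups of each. Its MYC difference was 0.71 ± 0.086 at 200 µM (limma adjusted p = 2.62e-09).

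Nsun4 (ENSMUSG00000028706, chromosome 4), the mitochondrial rRNA methyltransferase, had 119, 83.0 and 106 normalized counts in the MYC high group at 10 µM, and 54.8 and 45.6 in the MYC high group at 200 µM. It had 107, 126 and 136 in the MYC low group at 10 µM, and 79.0, 76.7 and 79.4 in the MYC low group at 200 µM. At 200 µM the MYC high libraries were below all MYC low libraries, and the groups at 10 µM overlapped. Its MYC difference at 200 µM was −0.64 ± 0.164 (limma adjusted p = 0.00074), from 43 to 154 reads per library.

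Trdmt1 (ENSMUSG00000026723, chromosome 2) encodes the tRNA methyltransferase that resembles DNA methyltransferases, and it had the lowest level per kilobase in every group, from 22 to 82 reads per library. It had 58.1, 63.8 and 50.6 normalized counts in the MYC high group at 10 µM, and 25.1 and 31.8 in the MYC high group at 200 µM. It had 74.1, 64.5 and 52.9 in the MYC low group at 10 µM, and 46.8, 40.9 and 44.5 in the MYC low group at 200 µM. Like Nsun4, it was lowest in the MYC high group at 200 µM, with overlap between the MYC labels at 10 µM. The MYC difference at 200 µM was −0.62 ± 0.208 (limma adjusted p = 0.00782), and it lost the call without replicate 2 of the MYC high group at 200 µM (−0.46, adjusted p = 0.104) and in DESeq2 on recovered reads (adjusted p = 0.0515).

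Nsun3 (ENSMUSG00000050312, chromosome 16), whose product modifies the mitochondrial methionine tRNA, had 259, 285 and 259 normalized counts in the MYC high group at 10 µM, and 369 and 355 in the MYC high group at 200 µM. It had 343, 346 and 344 in the MYC low group at 10 µM, and 393, 381 and 399.7 in the MYC low group at 200 µM. At 200 µM the difference of −0.11 (95% interval −0.27 to 0.05) did not pass, although the MYC high libraries were the lower ones.

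Nsun6 (ENSMUSG00000026707, chromosome 2), the enzyme for a small set of tRNAs and mRNAs, had 99.8, 92.2 and 65.8 normalized counts in the MYC high group at 10 µM, and 92.5 and 97.6 in the MYC high group at 200 µM. It had 93.1, 95.8 and 107 in the MYC low group at 10 µM, and 82.9, 109.5 and 94.8 in the MYC low group at 200 µM. All groups overlapped, and 0 of the 6 pairs of groups differed by limma, 0 at an unadjusted p under 0.05, and 0 by edgeR or DESeq2. The interval of the MYC difference at 200 µM ran from −0.34 to 0.33. Nsun6 had 65 to 121 reads per library over the 11 libraries.

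At 10 µM, where Myc mRNA did not separate the labels, Nop2, Nsun2 and Nsun5 were still higher in MYC high cells, and Nsun3 was lower. The counts were 3 higher, 1 lower and 3 not passed, against a background of 35.7% higher and 35.8% lower over all genes. The median log2 difference was −0.14 for the members and 0.00 for all genes.

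Nop2 averaged 1740.2 ± 68.9 normalized counts in MYC high cells and 1086 ± 5.03 in the MYC low group at 10 µM (SD, n = 3 each), a log2 difference of 0.68 ± 0.039 (1.60-fold, limma adjusted p = 7.12e-18). Nsun2 averaged 4412 ± 80.3 with MYC high and 1494 ± 28.4 with MYC low, a difference of 1.56 ± 0.033 (2.95-fold, limma adjusted p = 1.28e-31). For Nsun5 the difference was 0.74 ± 0.077 (1.68-fold, limma adjusted p = 6.69e-11), close in size to that at 200 µM. Nsun3 averaged 268 ± 14.8 with MYC high and 345 ± 1.51 with MYC low, and fell by 0.37 on the log2 scale (SE 0.070, limma adjusted p = 1.69e-05).

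The members that were lower in the MYC high group at 200 µM did not pass at 10 µM. Nsun4 had a difference of −0.26 (95% interval −0.56 to 0.04, limma adjusted p = 0.107), which passed without replicate 1 of the MYC high group at 10 µM (−0.38, adjusted p = 0.0394). Trdmt1 had −0.14 (−0.52 to 0.24) and Nsun6 −0.21 (−0.51 to 0.08). These intervals hold both no difference and falls of up to 0.56, 0.52 and 0.51.

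Low methionine in MYC high cells was accompanied by less Nop2, Nsun3 and Nsun2 and by more Nsun4 and Trdmt1. Nop2 fell by 0.84 on the log2 scale, while Nsun4 rose 2.01-fold and Trdmt1 1.99-fold. The counts were 2 higher, 3 lower and 2 not passed, against 37.9% higher and 37.9% lower over all genes. The members' median was −0.15 and that of all genes −0.00.

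Nop2 averaged 1740.2 ± 68.9 normalized counts at 10 µM and 3108 ± 81.4 at 200 µM (SD, n = 3 and 2; SE of the log2 difference 0.044, limma adjusted p = 3.1e-19). Nsun3 averaged 268 ± 14.8 at 10 µM and 362 ± 9.64 at 200 µM, a difference of −0.44 ± 0.078 (limma adjusted p = 5.14e-06). Nsun2 fell by a small amount, to 4412 ± 80.3 at 10 µM against 4895 ± 36.8 at 200 µM (−0.15 ± 0.037, limma adjusted p = 0.000459). In each of these the libraries at 10 µM lay below both at 200 µM.

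Nsun4 averaged 103 ± 18.3 normalized counts at 10 µM and 50.2 ± 6.52 at 200 µM, a difference of 1.01 ± 0.164 (limma adjusted p = 1.01e-06). Trdmt1 averaged 57.5 ± 6.61 at 10 µM and 28.5 ± 4.73 at 200 µM, a difference of 0.99 ± 0.208 (limma adjusted p = 5.79e-05). Every library at 10 µM was above both at 200 µM for either gene. Nsun5 (−0.00, 95% interval −0.18 to 0.17) and Nsun6 (−0.17, −0.50 to 0.17) did not pass.

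MYC low cells at low methionine moved in the same directions for the same 5 members, with other sizes. Nsun2 was now the member that fell most, by 0.43 on the log2 scale, and Nop2 fell by 0.15. Nsun4 rose 1.55-fold and Trdmt1 1.43-fold. The counts were 2 higher, 3 lower and 2 not passed, against 29.4% higher and 29.9% lower over all genes, with medians of −0.04 for the members and 0.00 for all genes.

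Nsun2 averaged 1494 ± 28.4 normalized counts at 10 µM and 2016 ± 39.8 at 200 µM (SD, n = 3 each; SE of the log2 difference 0.033, limma adjusted p = 6.39e-14). Nop2 averaged 1086 ± 5.03 at 10 µM and 1209 ± 28.5 at 200 µM (SE 0.039, limma adjusted p = 0.000986). Both genes had no overlap between the concentrations. Nsun3 averaged 345 ± 1.51 at 10 µM and 391 ± 9.64 at 200 µM, a difference of −0.18 ± 0.070 (limma adjusted p = 0.0243). That call was lost without replicate 1 or 3 at 10 µM, without replicate 1 or 3 at 200 µM (adjusted p = 0.0556 to 0.0767) and in DESeq2 (adjusted p = 0.0633).

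Nsun4 averaged 123 ± 14.9 normalized counts at 10 µM and 78.4 ± 1.41 at 200 µM in MYC low cells (0.64 ± 0.147, limma adjusted p = 0.000314). Trdmt1 averaged 63.8 ± 10.6 at 10 µM and 44.1 ± 2.96 at 200 µM (0.51 ± 0.186, limma adjusted p = 0.0172). Neither gene overlapped between the concentrations. The Trdmt1 call was lost without replicate 1 of the MYC low group at 10 µM (0.40, adjusted p = 0.109) and without replicate 2 of the MYC low group at 200 µM (0.46, adjusted p = 0.0596). Nsun5 (−0.04, 95% interval −0.19 to 0.12) and Nsun6 (0.05, −0.25 to 0.35) did not pass.

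Summed counts of cell type markers moved beside Nsun4 and Trdmt1, though most single markers over the minimum did not follow the same order. The summed normalized count of 5 macrophage markers was 873 to 906 in the MYC high group at 10 µM, 263 to 286 in the MYC high group at 200 µM, 929 to 973 in the MYC low group at 10 µM and 482 to 533 in the MYC low group at 200 µM. It came from Cd68 and Csf1r, 2 of the 5. Ptprc, which marks all leukocytes, and Clec4f had 0 reads in all libraries, and Adgre1 had 1 read over the 11 libraries. Csf1r followed the order of this sum. Cd68 did not, with a mean of 454 in the MYC high group at 10 µM and 204 in the MYC low group at 10 µM. The summed normalized count of the epithelial markers (4 of 6 over the minimum) was 23503 to 25164 in the MYC high group at 10 µM, 10033 to 10476 in the MYC high group at 200 µM, 31817 to 32591 in the MYC low group at 10 µM and 13850.0 to 14331 in the MYC low group at 200 µM. Of the 4 markers only Krt8 followed the order of the sum. Krt19 was highest in the MYC high group at 10 µM, with a mean of 12021 against 11026 in the MYC low group at 10 µM. Krt18 averaged 4140.2 at 10 µM and 5181 at 200 µM in MYC high cells, and Sox9 averaged 43.0 at 10 µM and 150.2 at 200 µM with MYC high, and 119.7 at 10 µM and 199 at 200 µM with MYC low. Of 4 endothelial and 6 fibroblast markers 0 were over the minimum. The part of these markers in the results was not tested.

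**Figure D2:**
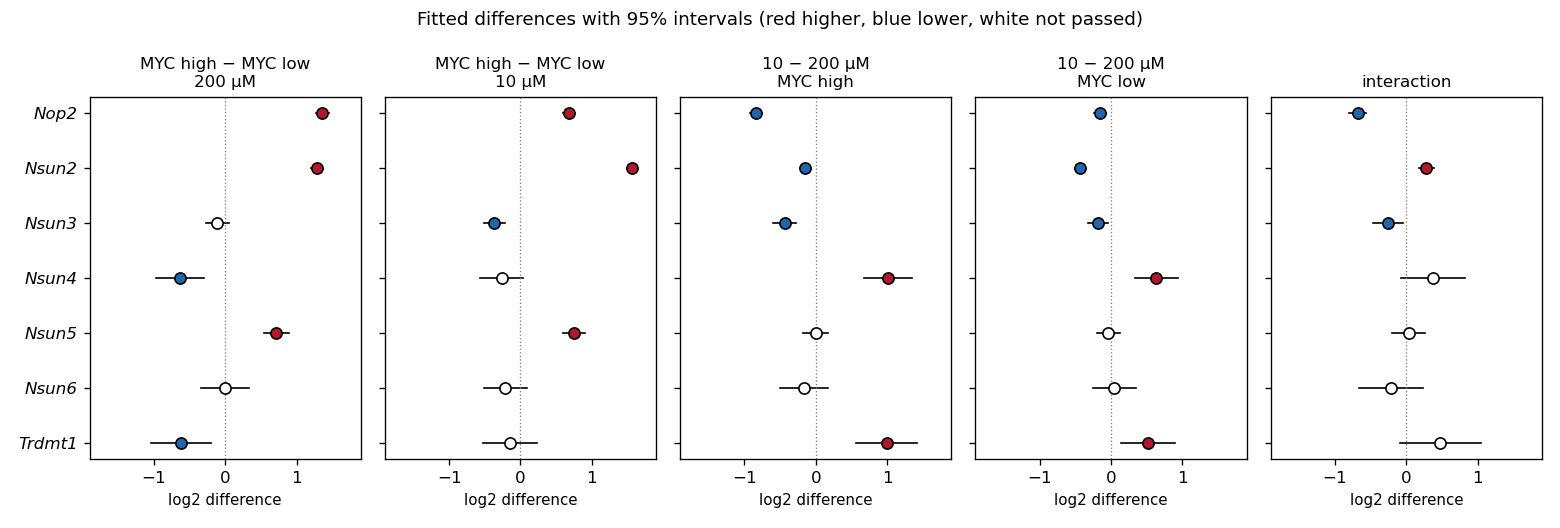
Log2 differences of the 7 members (rows) with 95% intervals in the 2 MYC comparisons, the 2 methionine comparisons and the interaction; red points were higher, blue lower and white did not pass. Nop2, Nsun2 and Nsun5 sit right of 0 in both MYC panels (0.68 to 1.56), and Nsun4 and Trdmt1 right of 0 in both methionine panels (0.51 to 1.01).

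The methionine response differed between the MYC states for Nop2, Nsun2 and Nsun3, as tested by the interaction, the log2 response to 10 µM against 200 µM in MYC high cells minus that in MYC low cells. For Nop2 it was −0.68 ± 0.059 (95% interval −0.80 to −0.56, limma adjusted p = 1.84e-12): the fall was 0.84 in MYC high cells and 0.15 in MYC low cells. For Nsun2 it was 0.28 ± 0.050 (limma adjusted p = 7.83e-06), the opposite sign, with a fall of 0.15 in MYC high cells and 0.43 in MYC low cells. The counts were 1 higher, 2 lower and 4 not passed, against 31.0% higher and 29.4% lower over all genes, with medians of 0.03 and 0.01.

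For Nsun3 the interaction was −0.26 ± 0.105 (limma adjusted p = 0.0347), a call lost in 11 of 20 alternatives, with adjusted p of 0.0106 to 0.108 over all 20. The 11 include leaving out replicate 1 or 3 of MYC high at 10 µM, replicate 2 of MYC high at 200 µM, any library of MYC low at 10 µM, or replicate 2 of MYC low at 200 µM (−0.23 to −0.26). Nsun4 (0.37, 95% interval −0.07 to 0.82, limma adjusted p = 0.143) and Trdmt1 (0.48, −0.09 to 1.04, adjusted p = 0.139) had larger estimates in MYC high cells, and the differences did not pass. Nsun4 passed without replicate 2 of the MYC high group at 10 µM (0.52, adjusted p = 0.0412). For Nsun5 it was 0.03 (−0.20 to 0.27) and for Nsun6 −0.21 (−0.66 to 0.24).

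**Figure D3:**
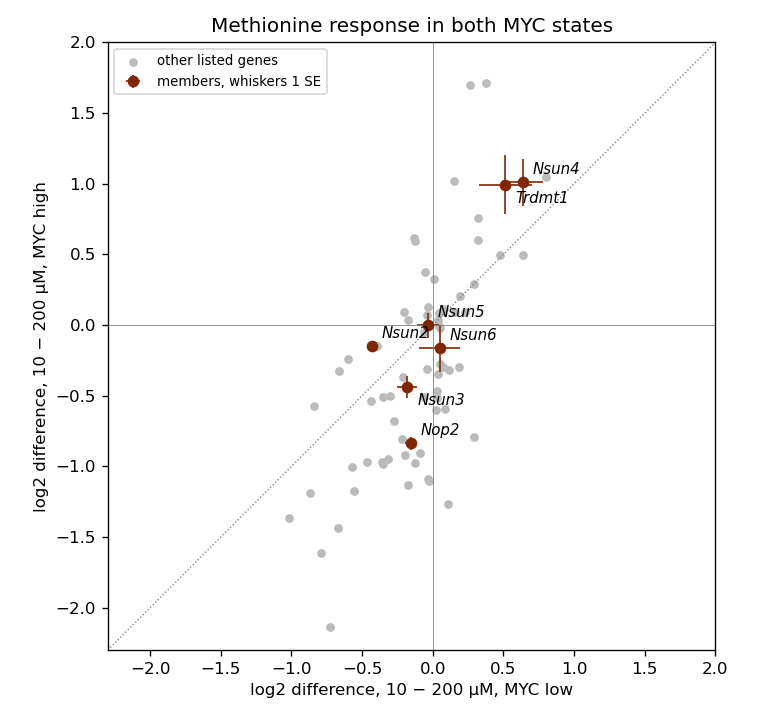
Log2 difference of 10 against 200 µM methionine in MYC high cells (vertical) and in MYC low cells (horizontal) for the members (named, whiskers 1 SE) and the other listed genes (grey); the dotted line marks equal responses. Nop2 lies below the line (−0.84 in MYC high, −0.15 in MYC low) and Nsun2 above it (−0.15 in MYC high, −0.43 in MYC low).

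The ratio of Nop2 to Nsun2 is given as a description. Nop2 counts amounted to 39.5% of Nsun2 counts in the MYC high group at 10 µM and 63.5% at 200 µM, and to 72.7% in the MYC low group at 10 µM and 60.0% at 200 µM. As log2 of Nop2 over Nsun2, that was −1.34 ± 0.061 and −0.66 ± 0.027 in MYC high libraries, and −0.46 ± 0.023 and −0.74 ± 0.020 in MYC low libraries (10 µM before 200 µM; SD). This ratio was not tested itself.

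Groups that differ in both factors were compared next. In the MYC high group at 10 µM 4 members were higher than in the MYC low group at 200 µM, 1 was lower and 2 did not pass, against 36.5% higher and 37.6% lower over all genes (medians 0.37 and −0.01). Here Nop2 was 0.52 (limma adjusted p = 1.12e-14), Nsun2 1.13 (adjusted p = 3.48e-27) and Nsun5 0.71 (adjusted p = 2.01e-10) higher, and Nsun3 fell by 0.55 (adjusted p = 8.32e-09), all on the log2 scale. Nsun4 was 0.37 higher (limma adjusted p = 0.0225), a call lost in 4 of 20 alternatives (adjusted p = 0.152 without replicate 1 and 0.0662 without replicate 3 of MYC high at 10 µM, 0.0551 without replicate 2 of MYC low at 200 µM, and 0.0501 with no filter). Trdmt1 had the same estimate of 0.37 and did not pass (adjusted p = 0.0705), except without replicate 3 of the MYC high group at 10 µM (0.46, adjusted p = 0.0484) or without the trend on mean expression (adjusted p = 0.0368).

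The MYC low group at 10 µM had 2.86-fold less Nop2 and 3.27-fold less Nsun2 than the MYC high group at 200 µM (log2 differences −1.52 and −1.71, limma adjusted p = 1.52e-27 and 1.43e-31). Nsun5 fell by 0.75 (adjusted p = 6.31e-10). Nsun4 rose by 1.27 (adjusted p = 8.27e-09) and Trdmt1 by 1.13 (adjusted p = 6.91e-06), while Nsun3 (−0.07) and Nsun6 (0.05) did not pass. Over all genes 41.0% were higher and 39.6% lower in this comparison, with medians of −0.07 for the members and 0.01 for all genes.

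The order of the levels therefore differed by member. Nop2 and Nsun2 ran from MYC high at 200 µM through MYC high at 10 µM and MYC low at 200 µM to MYC low at 10 µM, and each neighbour in that order differed. Nsun4 and Trdmt1 ran from MYC low at 10 µM through MYC high at 10 µM and MYC low at 200 µM to MYC high at 200 µM, with no difference passing between the groups at 10 µM. Nsun3 was lowest in the MYC high group at 10 µM, and its other 3 groups did not differ between neighbours in the order. Of the 6 pairs of groups, Nop2 and Nsun2 differed in 6, Nsun4 in 5, Nsun3, Nsun5 and Trdmt1 in 4 and Nsun6 in 0. Such calls were common, since in a single pair 29.4% to 41.0% of all genes were higher and 29.9% to 39.6% lower. The ratio of the highest to the lowest group mean was 2.86 for Nop2, 3.28 for Nsun2, 2.45 for Nsun4, 2.24 for Trdmt1, 1.68 for Nsun5, 1.46 for Nsun3 and 1.15 for Nsun6.

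Per kilobase of exon, Nop2 and Nsun2 made up most of the family in every group. The summed level of the 7 members was 1586 ± 32.0 normalized counts per kb in the MYC high group at 10 µM, 2165 ± 28.9 in the MYC high group at 200 µM, 823 ± 6.88 in the MYC low group at 10 µM and 954 ± 22.0 in the MYC low group at 200 µM (SD, n = 3, 2, 3 and 3). Nop2 took 39.6%, 51.8%, 47.6% and 45.7% of that sum in the same group order, and Nsun2 48.5%, 39.4%, 31.6% and 36.8%. Nsun5 took 4.45% to 6.95%, Nsun3 2.75% to 6.88%, Nsun4 0.387% to 2.49%, Nsun6 0.877% to 2.39% and Trdmt1 0.343% to 2.02%. Lengths were exon unions of the GENCODE M21 annotation. With the longest coding transcript instead, the order of Nop2 and Nsun2 in the MYC low group at 200 µM turned, to 466 and 484 per kb against 436 and 351 by exon union.

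**Figure D4:**
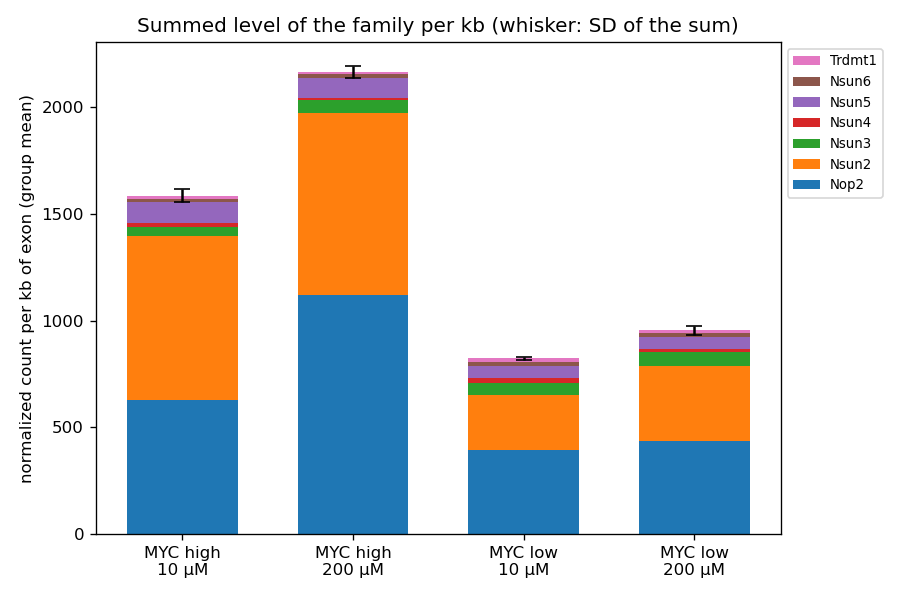
Summed level of the family in normalized counts per kb of exon (vertical axis from 0) in the 4 groups, with 1 colour per member and the SD of the sum as whiskers. Nop2 and Nsun2 fill most of each bar, and the bars for MYC high cells (1586 and 2165) stand above those for MYC low cells (823 and 954).

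Overlapping genes limit 2 of the values. The sources used here do not give the strand setting of the counting, so reads of genes on opposite strands cannot be told apart. In GENCODE M21, 11.1% of the Nsun2 exon bases overlap exons on the other strand, mostly of Gm17108, and 15.4% of those of Nsun5 overlap Pom121, a nuclear pore gene. Gm17108 counts stood at 17.3%, 17.4%, 18.2% and 17.6% of Nsun2 in MYC high cells at 10 and 200 µM and MYC low cells at 10 and 200 µM. Pom121 was 0.67 higher at 200 µM and 0.62 higher at 10 µM in MYC high cells (log2, limma adjusted p = 6.79e-16 and 1.88e-16), beside 0.71 and 0.74 for Nsun5. The other 5 members share no exon bases with an opposite gene.

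The genes whose log2 values ran most like each member over the 11 libraries were ranked by Pearson r among 9719 genes with a mean of at least 100. These correlations describe 4 groups of libraries rather than 11 independent points. Nop2 was closest to Umps (r = 0.9973), an enzyme of pyrimidine synthesis, Eed (0.9963), a Polycomb subunit, and Atic (0.9960), an enzyme of purine synthesis. Nsun2 was closest to Sord (0.9990), sorbitol dehydrogenase, Eif2s3x (0.9980), a subunit of translation initiation factor eIF2, and its overlapping neighbour Gm17108 (0.9972). Nsun5 was closest to Hat1 (0.9877), Ppan (0.9873) and Fkbp1a (0.9868), Nsun3 to Pofut2 (0.9906), Nsun4 to Zzef1 (0.9752) and Trdmt1 to Msrb1 (0.9713). For Nsun6 the highest was Kctd1 at 0.7977, below the top value of every other member.

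The surrounding pathway was described with 71 other listed genes, of which 66 were tested. With MYC high, 44 of the 66 were higher and 8 lower at 200 µM, and 44 were higher and 5 lower at 10 µM. Over all genes 36.8% were higher and 37.6% lower at 200 µM, and 35.7% higher and 35.8% lower at 10 µM. Low methionine went with 14 higher and 39 lower in MYC high cells (37.9% and 37.9% of all genes), and with 16 higher and 24 lower in MYC low cells (29.4% and 29.9% of all genes). The interaction was positive in 12 and negative in 33 (31.0% and 29.4% of all genes). These shares over all genes are the background for the counts of each list below.

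Readers of m5C were higher in MYC high cells at both concentrations, 5 of 5 tested at 200 µM (median 0.80) and 5 of 5 at 10 µM (median 0.31). Srsf2, a splicing factor, averaged 3642 ± 63.6 normalized counts in the MYC high group at 10 µM and 8778 ± 150.0 at 200 µM, and 2942 ± 100.1 in the MYC low group at 10 µM and 2732 ± 59.1 at 200 µM. Its MYC difference was 1.68 at 200 µM and 0.31 at 10 µM (limma adjusted p = 3.92e-31 and 1.03e-10), and the mRNA export adaptor Alyref had 0.63 and 0.31. In MYC high cells at low methionine 4 of 5 readers fell, while Ybx1, an mRNA-binding protein, rose by 1.05 and in MYC low cells by 0.80. Ybx2 was under the minimum.

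The partners of single members did not all move with them. Mterf4, the protein that NSUN4 binds, did not pass for MYC at 200 µM (0.10) or at 10 µM (−0.04), nor for methionine in MYC high cells (0.09), and rose by 0.23 in MYC low cells. Qtrt1 and Qtrt2 form the enzyme that makes queuosine, a tRNA base that stimulates TRDMT1 activity. Both were higher in MYC high cells, Qtrt1 by 1.56 at 200 µM and 0.95 at 10 µM (limma adjusted p = 8.09e-18 and 5.35e-13). Both fell at low methionine, Qtrt2 by 1.19 with MYC high and 0.87 with MYC low, where Trdmt1 rose.

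Alkbh1, which oxidises the base that NSUN3 methylates, averaged 166 ± 1.55 normalized counts in the MYC high group at 10 µM and 355 ± 23.4 at 200 µM, and 157 ± 4.62 in the MYC low group at 10 µM and 161 ± 9.34 at 200 µM. The 3 groups other than MYC high at 200 µM lay within 157 to 166, and the MYC difference was 1.13 at 200 µM (limma adjusted p = 3.01e-12) and 0.08 at 10 µM (adjusted p = 0.471). Of the other oxidising enzymes, Tet2 rose by 1.71 at low methionine in MYC high cells and by 0.38 in MYC low cells, with an interaction of 1.33 (limma adjusted p = 7.38e-10). In MYC low cells 2 of the 3 tested passed, and 1 without replicate 2 or 3 at 10 µM or replicate 3 at 200 µM. Tet3 was higher in the MYC high group at 200 µM (1.09) and 10 µM (0.60), and Tet1 was under the minimum.

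Among the substrates, only the mitochondrial ribosomal RNAs could be tested, and poly(A) selection captures them in part. mt-Rnr1, the small-subunit RNA that NSUN4 methylates, averaged 7871 ± 236 normalized counts in the MYC high group at 10 µM and 3879 ± 0.554 at 200 µM, and 6557 ± 157 in the MYC low group at 10 µM and 5901 ± 106 at 200 µM. It rose at low methionine by 1.02 in MYC high cells and 0.15 in MYC low cells (limma adjusted p = 1.27e-25 and 3.86e-05), beside 1.01 and 0.64 for Nsun4. The large-subunit RNA mt-Rnr2 fell by 0.15 and by 0.40 in the same comparisons.

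Genes of the methyl donor moved in both directions. Of 9 genes for SAM supply and S-adenosylhomocysteine removal, 4 were higher and 3 lower in the MYC high group at 200 µM, and 3 higher and 4 lower at 10 µM. These counts are near the background of all genes, 36.8% higher and 37.6% lower at 200 µM and 35.7% and 35.8% at 10 µM. Ahcy, which clears S-adenosylhomocysteine, was 1.09 higher at 200 µM and 1.13 higher at 10 µM (limma adjusted p = 8.5e-23 and 6.15e-25). Mat2a, which makes SAM, averaged 1551 ± 30.1 normalized counts in the MYC high group at 10 µM and 2902 ± 187 at 200 µM, and 2218 ± 36.9 in the MYC low group at 10 µM and 2367 ± 31.5 at 200 µM. Its interaction was −0.81 (limma adjusted p = 3.39e-15), beside −0.68 for Nop2. Mtrr, which reactivates methionine synthase, fell at low methionine by 1.61 with MYC high and 0.79 with MYC low.

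Other rRNA modification enzymes were higher in MYC high cells in 7 of 10 at 200 µM (median 0.58) and 8 of 10 at 10 µM (median 0.60), and the rest did not pass. Dkc1, the pseudouridine synthase, and Fbl, the ribose methyltransferase fibrillarin, were 1.85 and 1.24 higher at 200 µM, and 1.24 and 1.08 higher at 10 µM. At low methionine 5 of 10 fell and 3 rose in MYC high cells, among them Dkc1, which fell by 0.97, and Trmt112, a subunit of several methyltransferases, which rose by 0.61. In MYC low cells 5 fell and 2 rose. Beside these stand 37.9% lower and 37.9% higher of all genes in MYC high cells, and 29.9% and 29.4% in MYC low cells.

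Cytosolic tRNA methyltransferases other than Nsun2, Nsun6 and Trdmt1 were higher in MYC high cells in 11 of 14 at 200 µM (median 0.76) and in 7 of 14, with 1 lower, at 10 µM (median 0.12). At low methionine 11 of 14 fell in MYC high cells and the rest did not pass, and 6 fell and 1 rose in MYC low cells. Trmt61a, the catalytic subunit of a tRNA adenosine methyltransferase, fell by 2.14 with MYC high and by 0.73 with MYC low (limma adjusted p = 8.94e-19 and 1.57e-07). The interaction was negative in 11 of the 14, whereas that of Nsun2 was positive.

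Mitochondrial rRNA and tRNA modification genes were higher in MYC high cells in 9 of 16 and lower in 2 at 200 µM (median 0.55), and higher in 11 at 10 µM, where the rest did not pass (median 0.41). Low methionine went with 8 lower and 4 higher in MYC high cells, and with 5 lower and 2 higher in MYC low cells (4 in all without replicate 2 of MYC low at 10 µM and in DESeq2). Over all genes 37.9% were lower and 37.9% higher in MYC high cells, and 29.9% lower and 29.4% higher in MYC low cells, so the 5 of 16 is near the background. Mrm3, an rRNA ribose methyltransferase, fell by 1.44 with MYC high and 0.67 with MYC low, and Trmt2b rose by 1.70 and 0.27. Nsun3 and Nsun4, the mitochondrial members, had no higher call in either MYC comparison.

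DNA m5C methyltransferase genes, whose products TRDMT1 resembles in sequence, were listed together with Uhrf1. Dnmt1, Dnmt3a, Dnmt3b and Uhrf1, 4 of 4 tested, were higher in MYC high cells at 200 µM (median 0.52) and at 10 µM (median 0.49). Dnmt1, the maintenance enzyme, was 0.45 and 0.38 higher, and Dnmt3a, a de novo enzyme, 0.58 and 0.60 higher. Trdmt1 had −0.62 and −0.14 in the same comparisons. Dnmt3a rose at low methionine by 0.49 with MYC high and 0.48 with MYC low, and Dnmt3l was under the minimum.

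**Figure D5:**
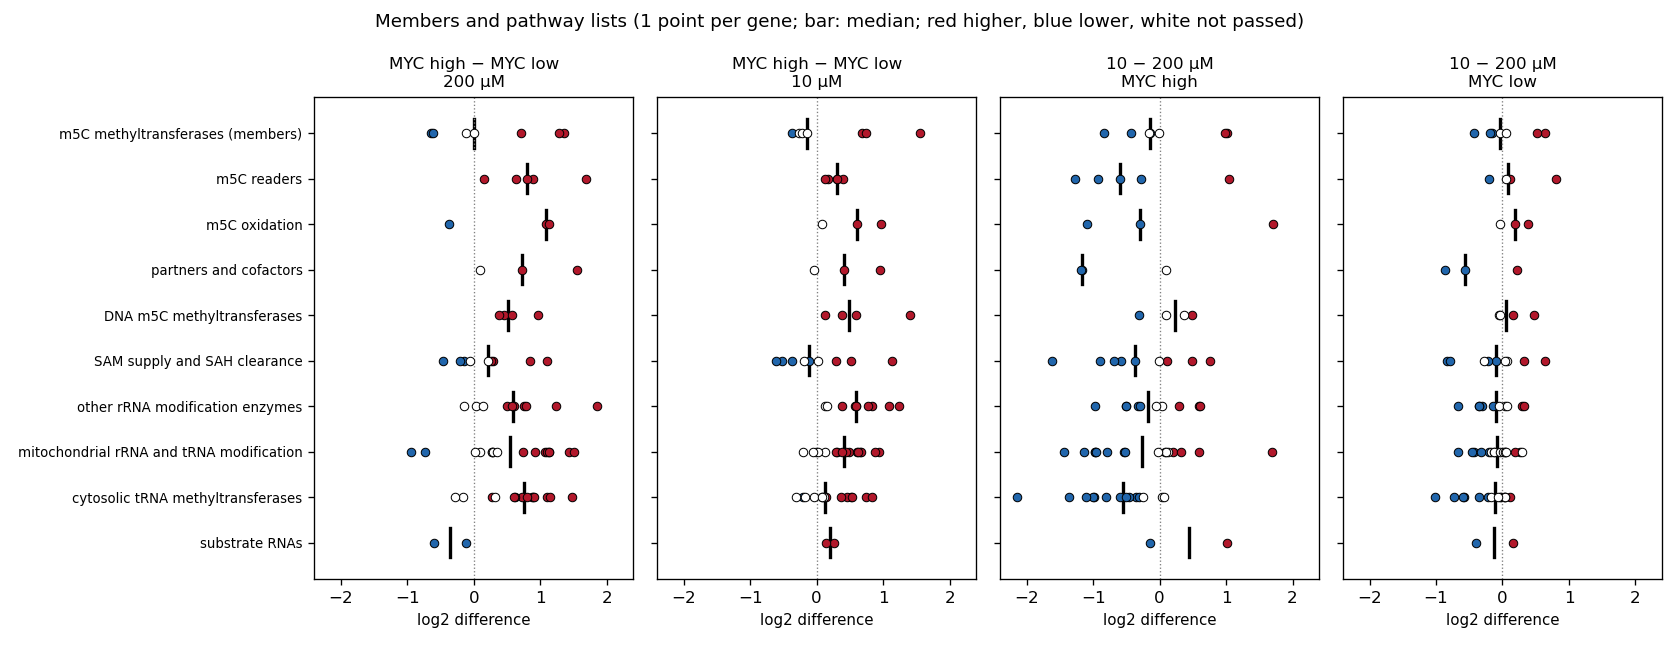
Log2 differences (horizontal axes) of the members and of the listed pathway genes, 1 row per list and 1 point per gene, with the median as a bar; red points were higher, blue lower and white did not pass. In the MYC panels the lists other than the members, the SAM list and the substrate RNAs have their bars between 0.12 and 1.09, whereas the members' bars are at −0.00 and −0.14.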

How the data were processed

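The files hold 1 value per gene and library, which the authors deposited as normalized counts and which are treated here as a signal. Per the submitters' processing notes, FastQC, fastp, STAR, SAMtools, HTSeq, DESeq2 and build GRCm39 were used; the sources used here give no version, annotation release, strand setting or parameter. Per the labels' protocols, the library kit was NEBNext Ultra II. In every library 100% of values were whole reads within 0.001 after multiplying by a size factor of 0.875 to 1.13. Symbols, lengths and exon overlap came from GENCODE M21 (GRCm38), which matched 52083 of 55416 identifiers.

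Genes with a mean of at least 10 were compared as log2(value + 1) by limma 3.58.1 (R 4.3.3), fitting a mean for each group and a trended prior (7 residual and 29.0 prior degrees of freedom) and two-sided tests, Benjamini-Hochberg adjusted over all 12909 genes per comparison at 0.05. The spread was shared, so the group with 2 libraries is taken to vary as the rest do. The log scale understates changes of low genes. The scripts were tested on simulated data. Alternatives were edgeR 4.0.16 and DESeq2 1.42.0 on the recovered reads, other filters, pseudocounts and scalings, a replicate block and leaving out each library.

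The members and lists were chosen with earlier results of these data known. The genes named are the members, Nsun7, Myc, up to 4 genes per list and comparison with the smallest adjusted p, listed genes under the filter, and the 3 genes most correlated with each member; markers and overlapping genes are named beside them. A library without reads of a gene allows up to 3 counts (95%). Intervals do not cover variation beyond these libraries. The values used here hold no replicate 1 of the MYC high group at 200 µM.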

Additional observations from a re-analysis of the deposited data

Results flagged for a closer look

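The methionine response of 3 members differed between the MYC states by the test of the difference itself, limma's interaction term. The interaction was −0.68 for Nop2, −0.26 for Nsun3 and 0.28 for Nsun2, on the log2 scale and as MYC high minus MYC low. All 3 genes fell at 10 µM in both MYC states, so the differences are in size and not in direction: Nop2 and Nsun3 fell more in MYC high cells and Nsun2 more in MYC low cells. No member's groups could be searched for a library that stands apart, since each holds at most 3 libraries.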

How the results depend on the processing

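Over 1001 combinations of member, comparison and alternative, 973 kept their side of the threshold, 24 lost a call, 4 gained one and 0 reversed. Differences called in the main results kept their direction, while those not called could change sign. Examples are Nsun6 for MYC at 200 µM (−0.10 to 0.10 over the alternatives) and Nsun5 for methionine in MYC high cells (−0.07 to 0.06). Nop2, Nsun2, Nsun5 and Nsun6 kept their side of the threshold in every alternative run. The losses were in Nsun3 (16), Nsun4 (4) and Trdmt1 (4). With the filter raised to a mean of 100, which leaves Nsun4, Nsun6 and Trdmt1 untested, 3 members passed for MYC at 200 µM, 3 for methionine in MYC high cells, 3 for methionine in MYC low cells and 3 between the MYC low group at 10 µM and the MYC high group at 200 µM. Of the 9738 genes then tested, 4089 were higher and 3798 lower for MYC at 200 µM. For methionine they were 3849 and 4146 in MYC high cells, and 3213 and 3465 in MYC low cells. Between the MYC low group at 10 µM and the MYC high group at 200 µM they were 4058 and 4309. So most genes passed at that filter too. Leaving out 1 library at a time gave 3 to 5 members for methionine in MYC low cells, with the lowest number without replicate 1 of the MYC low group at 10 µM. Without that library 3527 of all 12909 genes were higher and 3649 lower. The Nsun3 interaction lost its call with TMM scaling (−0.23, adjusted p = 0.057), edgeR (−0.24, 0.0547) and DESeq2 (−0.26, 0.0898), and without any of 7 single libraries; the cause was not tested. Libraries with the same replicate number showed no shared deviation from their group means: over 15 same-numbered pairs the correlation of deviations was −0.049 to 0.026. This cannot show whether they were prepared together. In the MYC high group at 200 µM, with 2 libraries, the deviations are equal and opposite by construction. With the number as a replicate block, 2 members passed for the interaction in place of 3, since Nsun3 had −0.25 (adjusted p = 0.051). In the MYC and methionine comparisons 5, 4, 5 and 5 members passed. Of all 12909 genes with the block, 3924 were higher and 3739 lower for the interaction. For MYC they were 4709 and 4786 at 200 µM, and 4613 and 4601 at 10 µM. For methionine they were 4838 and 4830 in MYC high cells, and 3795 and 3858 in MYC low cells.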
